A study of Mus musculus with 16 samples.

Results

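Injured mouse hearts given AICAR were set against injured hearts given Compound C, the most direct contrast in the series between a drug that switches AMPK on and a drug that switches it off. The contrast uses 10 of the 16 libraries, chosen by their labels alone, and covers every circular RNA (circRNA) counted in them and the sum of all circRNAs of each host gene. Of 68854 circRNAs listed, 35509 had a count in these 10 libraries, from 6557 named host genes. After a filter on low counts, 7917 circRNAs and 3699 host gene sums could be tested.

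All hearts came from male C57BL/6 mice. MIRI+AICAR (5 libraries) and MIRI+Compound C (5 libraries) had the left anterior descending coronary artery tied for 30 min and were kept for 1 week of reperfusion, so both arms carry myocardial ischaemia and reperfusion injury (MIRI) as well as a drug. MIRI without drug (3 libraries) and Sham without infarction (3 libraries) give the levels around the contrast and take part in the estimate of spread. The design names 8 mice in each group, but the labels do not say how mice became libraries, so a p-value here sets a difference against library-to-library spread, part of which may be technical. The labels give neither doses nor dosing times. The labels name cardiac muscle cells, yet no sort is described, and circRNAs of Adgre1, a macrophage receptor gene, and of Flt1, an endothelial receptor gene, stood beside those of the sarcomere genes Ttn and Myh6. In such bulk samples fewer cells of a type and less RNA per cell cannot be told apart.

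AMPK is the kinase with which cells answer a shortage of energy: it turns on fatty acid uptake and oxidation and holds back growth. AICAR is taken up by cells, phosphorylated by adenosine kinase and then mimics AMP on the kinase. It is also an intermediate of purine synthesis. Compound C (dorsomorphin) blocks the kinase and also inhibits type I receptors for bone morphogenetic proteins. A circRNA forms when the end of an exon is spliced back to the start of the same or an earlier exon, which leaves a ring without ends that resists the exonuclease RNase R. Its count is the number of reads over that back-splice junction, and it need not follow the linear mRNA of its host gene.

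The junctions of the exonic circles on which the results turn are printed here because the junction is the part of the ring that was counted. Each has 25 bases before the junction in lower case and the 25 bases after it in capitals, read 5′ to 3′ on the strand of the gene from GENCODE M21 transcripts on GRCm38. First come circles that were lower with AICAR than with Compound C.
Xdh novel_circ_027783: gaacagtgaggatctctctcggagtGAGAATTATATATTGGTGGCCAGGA
Xdh novel_circ_027787: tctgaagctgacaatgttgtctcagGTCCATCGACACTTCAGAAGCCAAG
Ddx60 novel_circ_061744: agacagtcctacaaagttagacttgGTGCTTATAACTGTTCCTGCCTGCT
Ttn novel_circ_036213: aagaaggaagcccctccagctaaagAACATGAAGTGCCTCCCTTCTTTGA
Pdgfd novel_circ_065050: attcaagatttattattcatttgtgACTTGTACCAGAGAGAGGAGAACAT
Pdgfd novel_circ_065046: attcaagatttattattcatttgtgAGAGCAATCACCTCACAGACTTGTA
Cpeb3 novel_circ_032910: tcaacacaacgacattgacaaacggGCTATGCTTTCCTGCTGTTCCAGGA
The Pdgfd circles end at the same base and differ in where the exon after the junction begins, so their lower-case parts are the same.

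Of the circles that were higher with AICAR, those printed here come from Rp1 and Fgfr2, and 3 of them are built from overlapping exons of Rp1.
Rp1 novel_circ_000026: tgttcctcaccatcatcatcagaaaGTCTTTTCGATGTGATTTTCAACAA
Rp1 novel_circ_000028: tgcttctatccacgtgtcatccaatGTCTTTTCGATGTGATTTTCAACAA
Rp1 novel_circ_000025: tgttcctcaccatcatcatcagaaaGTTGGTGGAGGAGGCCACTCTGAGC
Fgfr2 novel_circ_057522: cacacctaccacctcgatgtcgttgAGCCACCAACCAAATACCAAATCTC
Among the Rp1 circles, novel_circ_000026 shares the exon start after the junction with novel_circ_000028 and the exon end before it with novel_circ_000025. A read over one of these junctions is told from the others by the side that they do not share.

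Library totals were 178086 to 240889 counts with AICAR, against 140677 to 187227 with Compound C, of which 87.9% to 90.93% fell on tested circRNAs. Levels are CPM, the counts of a library scaled by TMM to a common total over the tested features, and those of host gene sums stand on their own scale. In edgeR, 44 circRNAs differed at an adjusted p under 0.05, or 0.556% of those tested. With AICAR 20 were higher (0.253%) and 24 were lower (0.303%). For host gene sums 72 differed (1.95%), 34 higher (0.919%) and 38 lower (1.03%), and 34 of the 72 also had a called circRNA. Fold changes over all tested host gene sums were positive for 1921 and negative for 1778. The arms did not overlap in 3.22% of circRNAs and in 4.81% of host genes (2.57% higher, 2.24% lower with AICAR), and an unadjusted p under 0.05 was found for 8.51% and 11.9%. Without MIRI+AICAR replicate 3 the counts were 10 circRNAs and 37 host genes. Leaving out any other single library except MIRI+AICAR replicate 4 (45) or MIRI+Compound C replicate 2 (36) gave 20 to 28 circRNAs, and 46 host genes were called without MIRI+Compound C replicate 5. MIRI+AICAR replicate 3 held the highest value of the AICAR arm in 11 of the 20 higher circRNAs and in 24 of the 34 higher host genes.

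**Figure D1:**
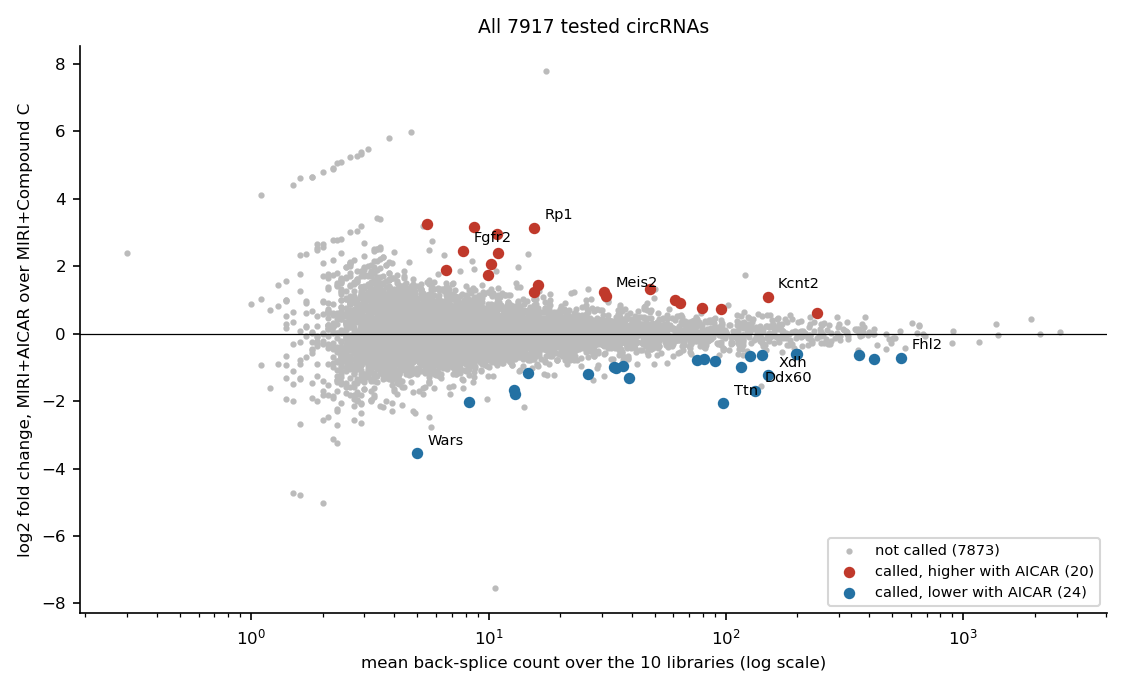
Each point is 1 of the 7917 tested circRNAs, with its mean count over the 10 libraries on a log axis and its log2 fold change, MIRI+AICAR over MIRI+Compound C. The 24 lower circles had a median mean count of 85.1 and the 20 higher circles one of 15.85, against 7.5 over all tested.

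Circles of Xdh, a gene of purine breakdown, gave the smallest p of the contrast. Xdh encodes xanthine dehydrogenase, which turns hypoxanthine into xanthine and xanthine into uric acid. Its circle novel_circ_027783 (GRCm38 chr17:73906010-73907745, minus strand, coding exons 21 to 24 of 36) had 567, 579, 481, 617 and 569 CPM with AICAR, against 1206, 1157, 1436, 1469 and 1358 CPM with Compound C. Every AICAR library lay below every Compound C library, giving a log2 fold change of -1.24 (SE 0.13, adjusted p = 1.16e-06). The neighbouring circle novel_circ_027787 (chr17:73909247-73912540, minus strand, exons 18 to 20) had 125, 113, 160, 154 and 138 CPM with AICAR, against 277, 436, 424, 352 and 234 CPM with Compound C, and again the arms did not overlap (log2 -1.31, SE 0.20, adjusted p = 0.000778). In MIRI without drug the first circle had 795, 702 and 728 CPM, and in Sham 1383, 1232 and 1013 CPM. For the first circle the Compound C libraries thus overlapped Sham, and the AICAR libraries lay below MIRI. The second circle had 168, 153 and 156 CPM in MIRI, which overlapped the AICAR arm. In Sham it had 326, 357 and 270 CPM, which overlapped the Compound C arm.

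All 7 tested Xdh circles had negative fold changes, from -3.23 to -1.24, and their sum was 701 ± 51.2 CPM with AICAR and 1755 ± 139 CPM with Compound C (SD, n = 5 each; log2 -1.32, SE 0.11, adjusted p = 6.40e-09). These Xdh calls stood in all 20 alternatives run. Of 34 genes listed for purine metabolism and the handling of AICAR, 7 could be tested, of which 4 were negative (median log2 -0.18, beside 0.02 over all host genes). Xdh was the 1 called (14.3%, beside 1.03% of all host genes called lower). Adk, the kinase gene whose product phosphorylates AICAR, had 48.3 to 224 CPM with AICAR, against 266 to 331 CPM with Compound C. The arms did not overlap, but Adk did not pass (log2 -0.81, SE 0.23, adjusted p = 0.0586). It lay lowest in MIRI+AICAR replicate 5, without which the log2 fold change was -0.57, and it passed in 6 of 20 alternatives, DESeq2 and voom among them.

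**Figure D2:**
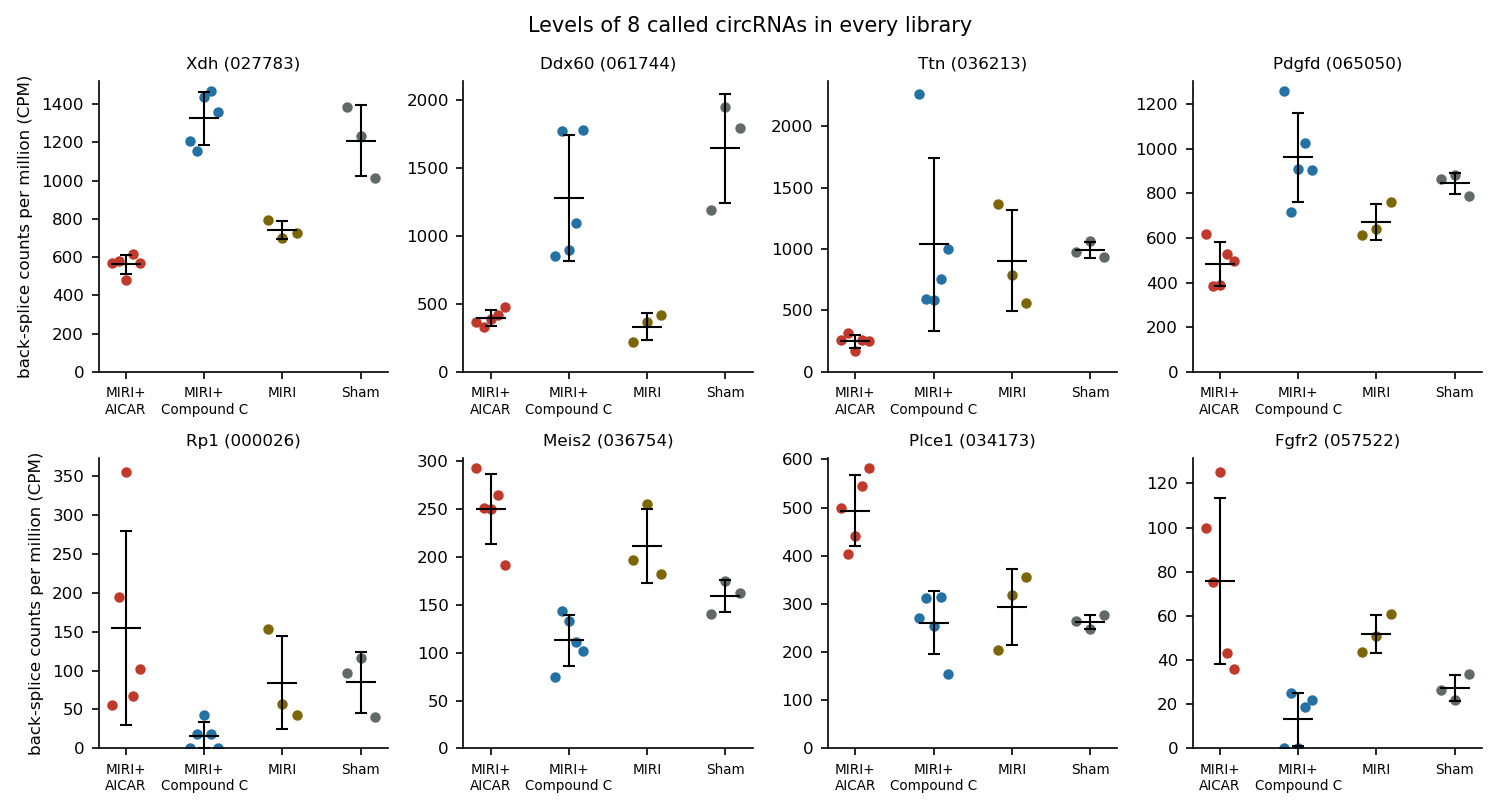
CPM of 8 called circRNAs in every library of the 4 groups, with the mean and SD in black (bars end at 0 where the SD exceeds the mean). In the upper row the 5 MIRI+AICAR libraries lie below the 5 MIRI+Compound C libraries, and in the lower row they lie above them.

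Of the tested interferon-induced genes, which cells switch on against viruses, 4 of 18 were called lower with AICAR and none was called higher. Ddx60 encodes an interferon-induced helicase of antiviral defence. Its circle novel_circ_061744 (chr8:61979257-61983943, plus strand, coding exons 20 to 22 of 39 in the transcript used) had 367, 327, 386, 419 and 480 CPM with AICAR, against 854, 1767, 896, 1093 and 1775 CPM with Compound C. The Compound C libraries fell into a lower set of 3 and a higher set of 2 (replicates 2 and 5), all above the AICAR libraries (log2 -1.69, SE 0.20, adjusted p = 1.44e-05). MIRI had 219, 364 and 416 CPM and Sham 1189, 1947 and 1790 CPM, so the AICAR arm lay near MIRI and the Compound C arm near Sham.

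Stat2, which carries the interferon signal to the nucleus, had a summed 219 ± 42.8 CPM with AICAR, against 469 ± 124 CPM with Compound C (log2 -1.10, SE 0.19, adjusted p = 0.00114). Dtx3l, an E3 ubiquitin ligase gene, had 585 ± 58.4 CPM, against 959 ± 140 CPM (log2 -0.71, SE 0.14, adjusted p = 0.00293). Parp11, an ADP-ribosyltransferase gene, had 448 ± 72.1 CPM, against 749 ± 140 CPM (log2 -0.74, SE 0.15, adjusted p = 0.00533). Without drug, MIRI had 190 ± 18.9 CPM of Stat2 and 610 ± 139 CPM of Dtx3l, and Sham had 460 ± 139 and 1036 ± 136 CPM (SD, n = 3 each). For Stat2 and Dtx3l the AICAR means thus lay near MIRI and the Compound C means near Sham. The called Parp11 circle novel_circ_055651 had means of 316 CPM in MIRI, 406 CPM with AICAR, 572 CPM in Sham and 707 CPM with Compound C. Its call was lost in 5 alternatives. For none of the 3 gene sums did the arms overlap, and the calls of these sums and that of Ddx60 stood in all alternatives. Parp11 is named after its value was seen, as 1 of the 4 calls of its list.

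Of 51 genes of the interferon list 18 were tested, and 17 of them had negative fold changes. The 4 calls are 22.2% of the tested members, beside 1.03% of all host genes called lower, and the median log2 was -0.58. Leaving out any library kept 4 or 5 calls and a median between -0.76 and -0.50. Members that did not pass in edgeR include Sp100 (log2 -0.59, adjusted p = 0.057), which DESeq2 called lower, and the innate immune regulator gene Nlrc5 (log2 -3.10, adjusted p = 0.058), which voom called lower. Eif2ak2, the gene of the RNA-activated kinase PKR, was the 1 member above 0 (log2 0.07). Summed over the list, levels ran from 2500.7 to 2714.1 CPM with AICAR, against 3886.6 to 6067.5 CPM with Compound C. The means of these sums were 2600 and 4871 CPM, and the 4 called genes make up most of the gap between them. The Ddx60 sum alone had means of 402 CPM with AICAR and 1287 CPM with Compound C. Wars, the tryptophanyl-tRNA synthetase gene and known as interferon-induced in human cells, is not on the list. Its sum had 28.2, 11.6, 9.01, 0 and 10.7 CPM with AICAR, against 51.1, 109, 60.9, 84.3 and 172 CPM with Compound C (log2 -3.00, SE 0.52, adjusted p = 0.00114).

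Pdgfd encodes a platelet-derived growth factor. Its circle novel_circ_065050 (chr9:6288490-6293937, plus strand, coding exons 2 to 3 of 7) had 617, 384, 391, 530 and 497 CPM with AICAR, against 1258, 716, 909, 1025 and 906 CPM with Compound C, with no overlap (log2 -0.99, SE 0.16, adjusted p = 0.00102). The circle that begins at another exon start, novel_circ_065046 (chr9:6288472-6293937), named after its value was seen, was less abundant, at 75.5 to 126 CPM with AICAR, against 131 to 367 CPM with Compound C (log2 -1.20, SE 0.25, adjusted p = 0.0198). Its call ended in 4 alternatives, without MIRI+AICAR replicate 2 or 3 and without MIRI+Compound C replicate 1 or 3, and the adjusted p reached 0.0917. The Pdgfd sum fell to 1197 ± 152 CPM with AICAR, against 2193 ± 421 CPM with Compound C (log2 -0.87, SE 0.12, adjusted p = 9.27e-05), and 12 of 13 Pdgfd circles had negative fold changes.

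Flt1, a receptor gene for vascular endothelial growth factor, had a sum of 293, 291, 293, 409 and 274 CPM with AICAR, against 708, 558, 525.97, 523 and 572 CPM with Compound C (log2 -0.88, SE 0.15, adjusted p = 0.00114). Replicate 4 stood high in the AICAR arm and replicate 1 high in the Compound C arm, without overlap. Efnb2, which encodes the arterial ligand ephrin-B2, fell to 1196 ± 107 CPM with AICAR, against 1814 ± 331 CPM with Compound C (log2 -0.60, SE 0.13, adjusted p = 0.00852). Shank3, better known as a scaffold gene of synapses, was called too (log2 -1.14, SE 0.25, adjusted p = 0.00987), but not without MIRI+AICAR replicate 3 (adjusted p = 0.0529) or MIRI+Compound C replicate 4 (0.0507). These 3 were the calls among 24 tested endothelial markers, 12.5% beside 1.03% of all host genes called lower.

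In all, 19 of the 24 endothelial markers were negative (median log2 -0.28), and the summed list had 5670.8 to 6741.6 CPM with AICAR, against 7106.6 to 9965.1 CPM with Compound C. Pecam1 (log2 -0.36, adjusted p = 0.34) and Vwf (log2 1.52, adjusted p = 0.21) did not pass, and Vwf lay on the other side of 0. Circles of the defining genes Erg, Eng, Sox17, Podxl and Flt4 had no count. Of 13 smooth muscle and pericyte markers 4 were positive and 9 negative, and Pdgfd and the potassium channel subunit gene Abcc9 were called lower, 15.4% beside 1.03% of all host genes (Abcc9 log2 -0.47, SE 0.13, adjusted p = 0.0496). The Abcc9 call was lost in 12 of 20 alternatives, among them without 9 of the 10 libraries in turn, with an adjusted p of up to 0.170. Circles of Acta2, Tagln, Cnn1 and Pdgfrb had no count. Whether shifts in vascular cells had a part in these differences was not tested.

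Among genes of the heart muscle cell, a circle of titin was lower with AICAR. Ttn encodes the giant spring protein of the sarcomere. Its circle novel_circ_036213 (chr2:76857904-76884197, minus strand, coding exons 85 to 119 of 313, 6501 nucleotides spliced) had 255, 315, 170, 256 and 251.7 CPM with AICAR, against 2262, 597, 581, 753 and 1001 CPM with Compound C. MIRI+Compound C replicate 1 stood far above the other libraries, and even the lowest Compound C library was above the highest AICAR library (log2 -2.05, SE 0.29, adjusted p = 0.000218). Without that replicate and in each of the other 19 alternatives the call stood, with fold changes from -2.20 to -1.55. MIRI had 1364, 792 and 563 CPM and Sham 978, 1064 and 932 CPM, so here the AICAR arm alone lay low.

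The sum of all Ttn circles was 7590 ± 1044 CPM with AICAR, against 10187 ± 999 CPM with Compound C (log2 -0.42, SE 0.11, adjusted p = 0.0452). That call ended in 8 of 20 alternatives, without MIRI+AICAR replicate 1, 2, 3 or 5 or MIRI+Compound C replicate 2, 3, 4 or 5, with an adjusted p of up to 0.145. Of 18 tested sarcomere and Z-disc genes 13 had negative fold changes (median log2 -0.40), and Ttn was the 1 called in edgeR (5.56%, beside 1.03% of all host genes called lower). Myh6, the alpha-myosin heavy chain gene, had 353 to 446 CPM with AICAR, against 443 to 620 CPM with Compound C (log2 -0.51, adjusted p = 0.0783 in edgeR), and DESeq2 and voom called it lower. Summed over the list, levels were 11940 to 15513 CPM with AICAR, against 15393 to 18423 CPM with Compound C. The Ttn sum given above is the larger part of these levels, whose means were 13564 and 17115 CPM. Fhl2, a LIM-domain gene active in heart muscle, had 2392, 2234, 2721, 2739 and 2661 CPM of its circle novel_circ_000420 with AICAR, against 3858, 4449, 4082, 3778 and 4769 CPM with Compound C (chr1:43141698-43153254, minus strand, exons 2 to 3 of 6 with the start codon; log2 -0.71, SE 0.12, adjusted p = 0.00220). The arms lay far apart and the call stood in all alternatives.

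Fatty acid genes were of interest because AMPK promotes fatty acid use. Cd36, which encodes the main fatty acid uptake protein of the heart, had a summed 1358 ± 214 CPM with AICAR, against 2164 ± 131 CPM with Compound C (log2 -0.67, SE 0.12, adjusted p = 0.00114). In AICAR libraries it had 1177, 1372, 1351, 1706 and 1186 CPM, and in Compound C libraries 2262, 2168, 2314, 2085 and 1990 CPM, with no overlap. MIRI had 1563, 1401 and 1704 CPM and Sham 1211, 1762 and 1747 CPM. The AICAR arm thus overlapped MIRI and Sham, and the Compound C arm lay above both. Of its 10 tested circles 9 had negative fold changes. Oxct1, the gene of the ketone-using enzyme SCOT, had 2984 ± 233 CPM with AICAR, against 3962 ± 266 CPM with Compound C (log2 -0.41, SE 0.10, adjusted p = 0.0274), but passed in only 13 of 20 alternatives. It was lost without MIRI+AICAR replicate 2, 3 or 5 and without MIRI+Compound C replicate 2, 3, 4 or 5, with an adjusted p of up to 0.111. In the list of fatty acid oxidation and mitochondrial genes 17 of 21 tested members were negative, with a median log2 of -0.33 and 2 calls in edgeR (9.52%, beside 1.03% of all host genes called lower). Acadm, a medium-chain dehydrogenase gene, did not pass in edgeR (log2 -0.80, adjusted p = 0.0681) but was called lower by DESeq2 and voom. Neither Cpt1a (log2 -0.86, adjusted p = 0.37) nor Idh2 (log2 -1.55, adjusted p = 0.088) was called by edgeR, DESeq2 or voom.

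Other circles that were lower with AICAR than with Compound C came from genes of unlike roles. The Cpeb3 circle novel_circ_032910 (chr19:37044522-37068291, minus strand, coding exons 8 to 10 of 11), from a gene that controls translation of bound mRNAs, had 1887, 2159, 1488, 2025 and 2164 CPM with AICAR, against 3011, 3565, 2962, 3642 and 3016 CPM with Compound C (log2 -0.74, SE 0.13, adjusted p = 0.00538). Lnx1, a ubiquitin ligase gene, had 11.99 to 62.7 CPM of novel_circ_048575 with AICAR, against 96.9 to 167 CPM with Compound C (log2 -1.78, SE 0.34, adjusted p = 0.00842). Neither pair of arms overlapped, and both calls stood in all alternatives. In MIRI the Cpeb3 circle had 1685, 2279 and 2773 CPM and the Lnx1 circle 94.8, 51.1 and 52.0 CPM, so both overlapped the AICAR arm. Rftn1, a lipid raft gene (novel_circ_027483, log2 -0.63, SE 0.12, adjusted p = 0.00808), and Pdzd2, a PDZ-domain gene (novel_circ_022108, log2 -0.60, SE 0.12, adjusted p = 0.00970), were called for abundant circles. Without MIRI+AICAR replicate 3 their adjusted p rose to 0.0531 and 0.0688. The Rftn1 circle had 1768 ± 215 CPM with AICAR, near the 1801 ± 156 CPM of MIRI, against 2729 ± 216 CPM with Compound C. The Pdzd2 circle had 976 ± 110 CPM with AICAR, below the 1395 ± 16.8 CPM of MIRI, against 1481 ± 152 CPM with Compound C. As sums, Pdzd2 (1278 ± 99.5 CPM with AICAR, against 1980 ± 201 CPM with Compound C), the actin-binding gene Ablim1 (1208 ± 170 CPM, against 1949 ± 177 CPM) and Fam117b (45.6 ± 13.99 CPM, against 151 ± 29.98 CPM) kept their calls in all alternatives. All 8 tested Ablim1 circles had negative fold changes though none was called alone.

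Higher circles were led by Rp1, a gene known for a microtubule protein of photoreceptors. The circle novel_circ_000026 (chr1:4197534-4231144, minus strand, coding exons 13 to 17 of 30) had 56.1, 195, 356, 67.5 and 102 CPM with AICAR, against 0, 18.7, 42.4, 18.5 and 0 CPM with Compound C. The AICAR libraries were widely spread, with replicate 3 highest and replicate 2 next, and all lay above the Compound C libraries (log2 3.15, SE 0.59, adjusted p = 0.00808). The circles novel_circ_000028 (chr1:4206660-4231144, exons 13 to 16; log2 2.96, SE 0.56, adjusted p = 0.00808) and novel_circ_000025 (chr1:4197534-4228619, exons 14 to 17; log2 3.15, SE 0.68, adjusted p = 0.0218) were also called. Without MIRI+AICAR replicate 3 the 3 circles gave adjusted p = 0.0531, 0.0709 and 0.214, and by voom with quality weights 0.246, 0.185 and 0.266. In thinned libraries novel_circ_000028 and novel_circ_000025 were lost (0.0555 and 0.0870). The third circle was also lost without MIRI+AICAR replicate 2 (0.0519) and MIRI+Compound C replicate 2 (0.0654), 4 (0.0817) or 5 (0.0860).

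All 8 tested Rp1 circles had positive fold changes, from 1.501 to 3.20. Their sum had 265, 953, 1342, 353 and 365 CPM with AICAR, against 109, 69.0, 161, 163 and 110 CPM with Compound C, 508, 377 and 277 CPM in MIRI and 481, 381 and 268 CPM in Sham. The Compound C arm was thus the low group, below each of the other 3 groups, and the sum kept its call in all 20 alternatives (log2 2.41, SE 0.36, adjusted p = 0.000206).

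**Figure D3:**
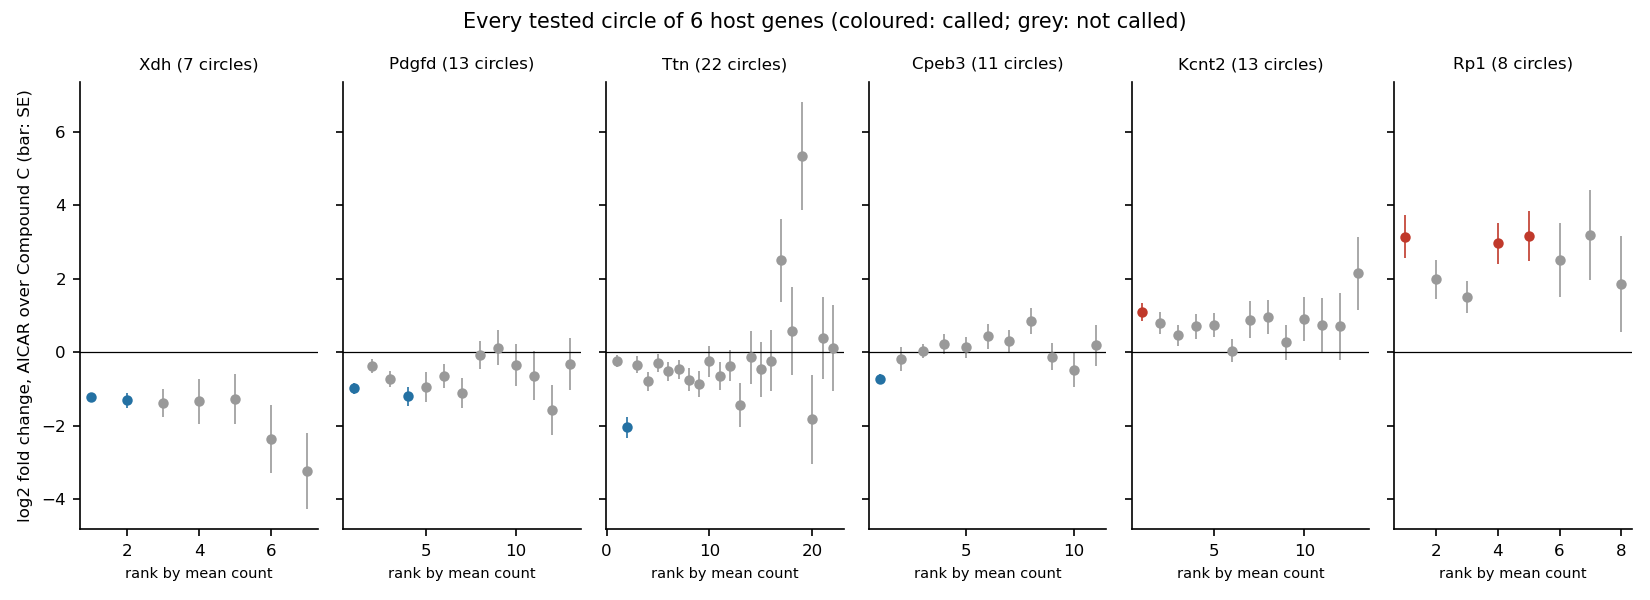
Log2 fold change (MIRI+AICAR over MIRI+Compound C) with its SE for every tested circle of 6 host genes, in order of mean count from the left. All 7 Xdh circles lie below 0 and all 8 Rp1 and 13 Kcnt2 circles above it, while in Ttn and Cpeb3 a single called circle lies apart from most others.

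Transcription and signalling genes followed. Meis2, a homeobox gene, had 293, 251.7, 251, 265 and 192 CPM of novel_circ_036754 with AICAR, against 74.9, 143, 133, 111 and 102 CPM with Compound C (chr2:115921672-116049198, minus strand; log2 1.13, SE 0.21, adjusted p = 0.00808), and this call stood in all alternatives. Its listed spliced length of 527 nucleotides does not match the 338 of the annotated exons between its ends, so its inner exons may differ. Plce1, a phospholipase C gene, had 498, 403, 441, 545 and 581 CPM of novel_circ_034173 with AICAR, against 270, 311, 254, 315 and 153 CPM with Compound C (chr19:38523915-38525452, plus strand, the single exon 2 of 33 with the start codon; log2 0.91, SE 0.19, adjusted p = 0.0166). The arms did not overlap, but the circle did not pass without MIRI+AICAR replicate 5 (adjusted p = 0.0520) or MIRI+Compound C replicate 3 (0.0518) or 5 (0.0781). Its summed level rose to 826 ± 110 CPM with AICAR, against 414 ± 98.9 CPM with Compound C, and that call stood in all alternatives (log2 1.00, SE 0.17, adjusted p = 0.00113).

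Fgfr2, a fibroblast growth factor receptor gene, had a sum of 152, 151, 216, 73.2 and 91.2 CPM with AICAR, against 29.2, 23.0, 0, 28.1 and 48.2 CPM with Compound C (log2 2.43, SE 0.45, adjusted p = 0.00176). Sdk1, a cell adhesion gene, rose to 243 ± 55.6 CPM with AICAR, against 87.4 ± 25.1 CPM with Compound C (log2 1.45, SE 0.26, adjusted p = 0.00144). Gxylt2, a glycosyltransferase gene, rose to 242 ± 73.3 CPM, against 93.7 ± 30.5 CPM (log2 1.33, SE 0.26, adjusted p = 0.00302). Setbp1 rose to 1901 ± 165 CPM, against 1192 ± 179 CPM (log2 0.67, SE 0.13, adjusted p = 0.00393). In these 4 genes the arms did not overlap and the sums kept their calls in all alternatives. Sntg2, a syntrophin gene (log2 1.51, SE 0.33, adjusted p = 0.00859), lost its call after thinning all libraries to 1 depth (adjusted p = 0.0626), and Rmdn2 (log2 0.57, SE 0.13, adjusted p = 0.00859) lost it there (0.118) and without MIRI+AICAR replicate 3 (0.0689). The Fgfr2 circle novel_circ_057522 (chr7:130218998-130242644, minus strand, coding exons 3 to 6 of 18) was called with a mean count of 7.8 (log2 2.46, SE 0.53, adjusted p = 0.0218). It was lost in 7 alternatives, without MIRI+AICAR replicate 1, 2 or 3 or MIRI+Compound C replicate 1 or 3 among them, with an adjusted p of up to 0.138, by voom.

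Fewer of the higher circles than of the lower ones had arms that did not overlap: 15 of 20, against 23 of 24, where 1.78% and 1.44% of all tested circRNAs were non-overlapping in these directions. The difference between these shares was not tested. Clip4 (novel_circ_029114, log2 1.00, adjusted p = 0.0224) and Tmem26 (novel_circ_007475, log2 2.39, adjusted p = 0.0249) completed the higher exonic circles with the smallest p. The loss of any of 6 single libraries ended each call, with an adjusted p of up to 0.0860 and 0.126. Over all alternatives the Tmem26 circle was lost in 8, with an adjusted p of up to 0.158. A pair of higher circles was listed as intergenic. These were novel_circ_065428 (chr9:41475005-41528200, plus strand), with 212 to 277 CPM with AICAR, against 65.7 to 162 CPM with Compound C (log2 1.24, SE 0.25, adjusted p = 0.0127), and novel_circ_042024 (chr3:120772681-120799747, minus strand), with 42.0 to 69.2 CPM, against 0 to 12.3 CPM (log2 3.26, SE 0.70, adjusted p = 0.0218). The first was lost without MIRI+AICAR replicate 3 (adjusted p = 0.0531) or MIRI+Compound C replicate 5 (0.0611). The second was lost without 6 single libraries, with an adjusted p of up to 0.0781 among them and 0.0849 by voom.

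The other called members are given by their range, and those named here were chosen after their values were seen. Of circRNAs, 10 more were higher, with log2 fold changes from 0.62 to 2.06 and adjusted p from 0.0331 to 0.0495, and 14 more were lower, from -3.54 to -0.61 and with adjusted p from 0.0104 to 0.0483. Among the lower were circles of Stat2 (novel_circ_008228, 111 to 174 CPM with AICAR, against 236 to 409 CPM with Compound C), Flt1 (novel_circ_050038, 107 to 207 CPM, against 249 to 296 CPM) and Myh6 (novel_circ_019597, 43.4 to 75.2 CPM, against 89.9 to 148 CPM), none of them overlapping. Their calls were lost in 9, 11 and 12 alternatives. Of the higher, the Kcnt2 circle novel_circ_004250, from a sodium-activated potassium channel gene, was second in mean count to a Setbp1 circle (149.9 and 242.6 counts over the 10 libraries) and had 989 to 1418 CPM with AICAR, against 299 to 703 CPM with Compound C (log2 1.10, SE 0.25, adjusted p = 0.0331). This circle had 1168 ± 501 CPM in MIRI and 1146 ± 620 CPM in Sham, near the 1196 ± 197 CPM with AICAR, against 556 ± 153 CPM with Compound C. All 13 tested Kcnt2 circles were positive, but the call was lost in 8 alternatives.

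Of host gene sums, 21 more were higher and 19 more were lower, with adjusted p of up to 0.0486. Nox4, which encodes a hydrogen peroxide-forming oxidase, had 366, 227, 441, 228 and 354 CPM with AICAR, against 65.7, 126, 133, 135 and 62.0 CPM with Compound C (log2 1.59, SE 0.39, adjusted p = 0.0223), and lost its call in 4 alternatives with an adjusted p of up to 0.0995. Epas1, the gene of the hypoxia-inducible factor HIF-2 alpha, had 28.2, 58.1, 58.5, 99.1 and 64.4 CPM with AICAR, against 146, 132, 94.1, 169 and 124 CPM with Compound C (log2 -1.07, SE 0.28, adjusted p = 0.0393). The arms of Nox4 did not overlap and those of Epas1 did, and Epas1 lost its call in 10 alternatives.

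Several sums rested on genes at or near 0 in the Compound C arm. Adamts19, a metalloprotease gene, had 78.8, 40.7, 54.0, 38.8 and 32.2 CPM with AICAR and was listed at 0 in all 5 Compound C libraries, while MIRI had 40.6, 53.9 and 42.0 CPM and Sham 17.2, 34.0 and 12.8 CPM. With 3 counts per library in place of 0, it was 2.62-fold higher with AICAR (adjusted p = 0.00114). A sum listed at 0 can have had 1 read in each of its circles, since the table holds no count of 1. Adamts19 had 9 circles with a count in the 16 libraries, so this fold is not a lower bound. Chosen after their values were seen, Nrxn3, a synaptic adhesion gene, Faxc and Ryr3, a calcium release channel gene, were also listed at 0 in all Compound C libraries. With 3 counts per library in place of 0 they were 2.04-fold, 1.80-fold and 3.25-fold higher with AICAR, which is no lower bound either. Their adjusted p were 0.0342, 0.0205 and 0.0297, and each call was lost in some alternatives, with an adjusted p of up to 0.107, 0.0540 and 0.197. Ryr3 had 180 CPM in MIRI+AICAR replicate 3 and 0 in replicate 2 of that arm, and without replicate 3 it was 1.65-fold higher by the same reckoning.

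Across single circles, 187 had a count in at least 4 of the 5 AICAR libraries and none with Compound C, and 31 had the reverse. In all 5 libraries of the arm these numbers were 33 and 2. AICAR libraries had the higher mean total count, and a circle listed at 0 can have had 1 read, since the table holds no count of 1. The most abundant of those with counts under AICAR came from Fgf12 (novel_circ_025106, 4, 9, 12, 2 and 5 counts), Nrxn3 (novel_circ_015594, 4, 7, 7, 5 and 8 counts), Med12l (0, 3, 6, 6 and 15 counts), Wscd2 (14, 5, 6, 0 and 5 counts) and Hmbox1 (3, 10, 0, 9 and 7 counts), which was level in mean count with a Ttn circle, novel_circ_036092 (5.8 each). In the reverse direction the leading circle was from Itga1 (novel_circ_017783), with no count in any AICAR library and with 0, 6, 4, 6 and 4 counts with Compound C. None of these was among the 44 called circles, and against 3 counts per library their differences were at least 1.51-fold to 1.77-fold.

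The next question was whether the circles of a gene moved together. Of 1624 host genes with at least 2 tested circles, 2 (0.123%) had a changed mix of circles, Ttn and Cpeb3, and 64 (3.94%) had an unadjusted p under 0.05. In Ttn (22 circles, adjusted p = 0.000942) the 35-exon circle novel_circ_036213 had a log2 difference of -1.16 relative to the other circles of the gene (adjusted p over circles = 2.52e-06). Its most abundant circle, novel_circ_036234 (chr2:76863274-76868085, exons 105 to 111), lies within the same exons and had 5394 to 7580 CPM with AICAR, against 4899 to 9202 CPM with Compound C (log2 -0.24, SE 0.16, adjusted p = 0.758). A rarer circle from later exons, novel_circ_036092 (chr2:76802231-76817863, exons 203 to 225 of 347 in another transcript), had 18.7, 31.5, 35.1, 38.6 and 36.0 CPM with AICAR and was listed at 0 in all Compound C libraries, at least 1.60-fold higher, and did not pass (adjusted p = 0.128). In Cpeb3 (11 circles, adjusted p = 0.0180) the abundant circle novel_circ_032910 was lower while 7 of the 11 circles had positive fold changes, with novel_circ_032923 highest (50.3 to 81.0 CPM with AICAR, against 24.2 to 62.2 CPM with Compound C, log2 0.85, adjusted p = 0.443).

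The Ttn mix did not pass without MIRI+AICAR replicate 3 (adjusted p = 0.440), 4 (0.0595) or 5 (0.0512) or MIRI+Compound C replicate 1 (0.194), and passed in the other alternatives run. The Cpeb3 mix did not pass by Simes combination (1.00), with a replicate block (0.300) or without MIRI+AICAR replicate 1 (0.224), 3 (0.440) or 4 (0.129) or MIRI+Compound C replicate 1 (0.194), 3 (0.0930), 4 (0.0924) or 5 (0.179). Itga1, Rev1 and Psd3 came next and did not pass (adjusted p = 0.440, 0.440 and 0.475). In Psd3, a circle of exons 12 to 13 (novel_circ_060291) reached 1372 and 2520 CPM in MIRI+AICAR replicates 2 and 3 and lay between 299 and 707 CPM in the other AICAR libraries, against 278 to 360 CPM with Compound C (log2 1.75, adjusted p = 0.0541). MIRI replicate 1 had 2057 CPM of it.

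AMPK itself and its pathway showed no called member. Of 65 genes of the AMPK complex, its upstream kinases and its targets 36 were tested, of which 17 were positive (median log2 -0.03). In edgeR 2 members had an unadjusted p under 0.05, and DESeq2 and voom also called 0. The catalytic subunit genes Prkaa1 (log2 -1.17, adjusted p = 0.54) and Prkaa2 (log2 -0.20, adjusted p = 0.91) and the acetyl-CoA carboxylase genes Acaca (log2 0.23, adjusted p = 0.67) and Acacb (log2 -0.52, adjusted p = 0.54) did not pass. Pdpk1, a kinase gene of insulin signalling, came closest with 490 to 657 CPM with AICAR, against 399 to 466.4 CPM with Compound C (log2 0.37, SE 0.13, adjusted p = 0.192). The phosphorylation of the kinase and its targets, on which both drugs act, was not measured.

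The list for bone morphogenetic protein receptors and SMAD genes also held TGF-beta receptor genes and the ligand gene Bmp6. It gave 0 calls and 0 unadjusted p under 0.05 in edgeR, DESeq2 and voom among 15 tested genes, 9 positive and 6 negative. Bmpr1a (log2 -0.43, adjusted p = 0.634) and Acvr1 (log2 0.10, adjusted p = 0.940) encode type I receptors of the kind that Compound C also inhibits. Acvr2a, another receptor gene of the list, had 942 ± 141 CPM with AICAR and 1074 ± 98.7 CPM with Compound C (log2 -0.19, adjusted p = 0.607). By edgeR, DESeq2 and voom 0 members were called for calcium handling (22 tested, median log2 -0.11), cell cycle (14 tested, median log2 0.20) or autophagy and cell death (15 tested, median log2 0.04), where edgeR gave 1, 2 and 0 unadjusted p under 0.05. Among 24 splicing and circRNA formation genes 15 were positive and 9 negative, and Cpeb3 (log2 -0.54, SE 0.12, adjusted p = 0.00859) was the 1 called in edgeR and DESeq2. In edgeR this was 4.17% of the tested members, beside 1.03% of all host genes called lower. The splicing factor genes Rbfox1 (log2 -0.59, adjusted p = 0.101 in edgeR, and called lower by voom) and Rbfox2 (log2 0.46, adjusted p = 0.501) lay on opposite sides of 0.

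**Figure D4:**
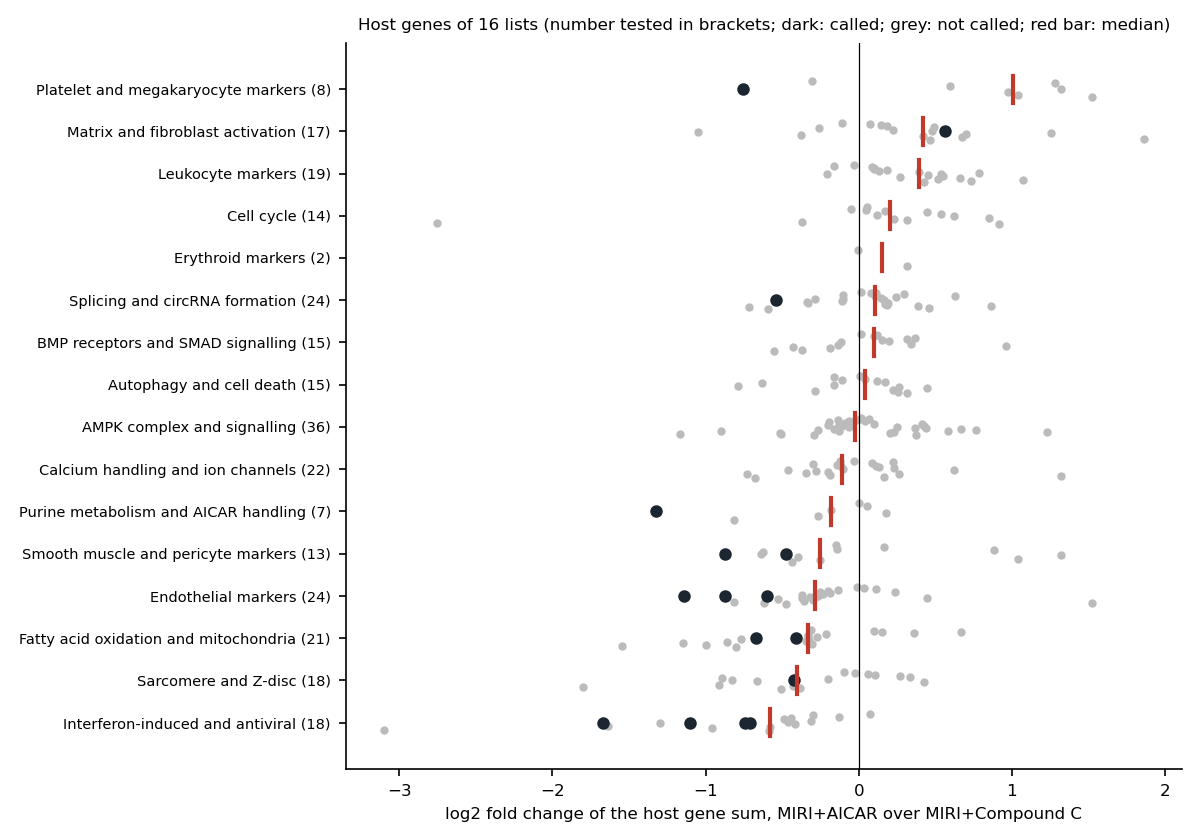
Log2 fold change of host gene sums, MIRI+AICAR over MIRI+Compound C, for the members of 16 gene lists, ordered by their median. The interferon list has the lowest median (-0.58) with 4 called genes, and the platelet list the highest (1.01) with 1 called gene, Dnm3, below 0.

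The lists of matrix genes and leukocyte markers had medians above 0. Fold changes were positive for 13 of the 17 tested genes of matrix and fibroblast activation (median log2 0.42), and the summed list had 3004.5 to 3311.7 CPM with AICAR, against 2121.2 to 2779.3 CPM with Compound C. Glis3, a transcription factor gene, was the 1 called, 5.88% beside 0.919% of all host genes called higher. It had 620 ± 92.0 CPM with AICAR, against 419 ± 77.4 CPM with Compound C (log2 0.56, SE 0.15, adjusted p = 0.0469). Its call was lost in 9 of 20 alternatives, without 8 single libraries, with an adjusted p of up to 0.133. Ltbp1, which encodes a binding protein of TGF-beta, had 770 to 887 CPM with AICAR, against 570 to 641 CPM with Compound C, and did not pass (log2 0.46, adjusted p = 0.163). Circles of Postn, Lox, Tnc and Tcf21 had no count. Leukocyte markers were positive in 16 of 19 tested genes (median log2 0.40), and 0 were called, while 4 had an unadjusted p under 0.05 in edgeR. Adgre1 had 1395 to 1883 CPM with AICAR, against 992 to 1426 CPM with Compound C (log2 0.43, SE 0.13, adjusted p = 0.101), and it was the 1 member called by DESeq2, while voom called 0. The summed leukocyte list had 4045.3 to 5155.8 CPM with AICAR, against 3188.0 to 3803.9 CPM with Compound C, while Csf1r, Cx3cr1 and Ccr2 had no count.

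Platelet markers were few: 8 were tested and 6 were positive, and the median log2 was 1.01 but 0.39 without MIRI+AICAR replicate 5. That library had 1647 CPM of Pde5a and 1196 CPM of Trpc6, against 282 to 478 CPM and 132 to 197 CPM with Compound C, and a summed list of 5520.6 CPM, against 1749.5 to 2283.4 CPM. MIRI replicate 1 stood higher still, with 5650 CPM of Pde5a and 4825 CPM of Trpc6. The defining genes Pf4, Itga2b and Gp9 had no count. Dnm3, a dynamin gene on this list, had 378 ± 37.1 CPM with AICAR, against 643 ± 141 CPM with Compound C (log2 -0.75, SE 0.15, adjusted p = 0.00407). It was the 1 called of the 8 tested (12.5%, beside 1.03% of all host genes called lower). Without MIRI replicate 1 and MIRI+AICAR replicate 5 together, 46 circRNAs and 82 host genes were called. Erythroid markers had 2 tested genes, with 0 called and 0 unadjusted p under 0.05 in edgeR, DESeq2 and voom.

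A pair of lists was added after the values had been seen and is described without a test. Of 23 atrial markers 2 were tested: Pam had 42.9 to 158 CPM with AICAR, against 13.8 to 39.3 CPM with Compound C, and Cacna1d had 141 to 414 CPM, against 77.5 to 132 CPM. Pam was called in edgeR (log2 1.83, SE 0.43, adjusted p = 0.0180) and Cacna1d was not (log2 1.32, adjusted p = 0.0817). The call was 50.0% of the 2, beside 0.919% of all host genes called higher. The defining atrial genes Nppa, Myl4, Myl7, Sln and Bmp10 had no count. Of 21 valve and endocardial markers 6 were tested, with Adamts19 and the natriuretic peptide clearance receptor gene Npr3 (258 to 567 CPM with AICAR, against 74.7 to 328 CPM with Compound C) among the 72 called genes. These were 33.3% of the 6, beside 0.919% of all host genes called higher. DESeq2 called Npr3 but neither Adamts19 nor Pam. Pam lost its call in 5 of the 19 alternatives that gave it an adjusted p, voom among them, and Npr3 in 6 of 20, each without MIRI+AICAR replicate 2 or 3 or MIRI+Compound C replicate 2 or 5 among others, with an adjusted p of up to 0.0995 and 0.106. The part of atrial or valve tissue in these differences was not tested.

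Most called members had the untreated injured hearts between the arms. The MIRI mean lay between the AICAR and Compound C means for 40 of 44 circRNAs and 66 of 72 host genes, a description, since the arms were chosen to differ. The Compound C mean was the farther from MIRI for 34 circRNAs, 20 of the 24 lower and 14 of the 20 higher, and the AICAR mean for the other 10. For host gene sums the numbers were 52 and 20. The 10 circles with the highest mean count were not called in edgeR, with adjusted p from 0.205 to 0.998. Among them the Nfix circle novel_circ_060633, from a transcription factor gene, had 15774 ± 754 CPM with AICAR and 15157 ± 1195 CPM with Compound C (SD, n = 5 each), and the Gigyf2 circle novel_circ_003594 had 12697 ± 764 CPM and 12690 ± 950 CPM. The Slc8a1 circle novel_circ_027970, from the sodium-calcium exchanger gene, was more scattered, with 7387 to 15662 CPM with AICAR, against 3970 to 14062 CPM with Compound C (log2 0.42, adjusted p = 0.648). The Asph circle novel_circ_044015 had 8633 to 9416 CPM with AICAR, against 6882 to 8299 CPM with Compound C, which did not overlap and did not pass (log2 0.30, SE 0.10, adjusted p = 0.205).

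**Figure D5:**
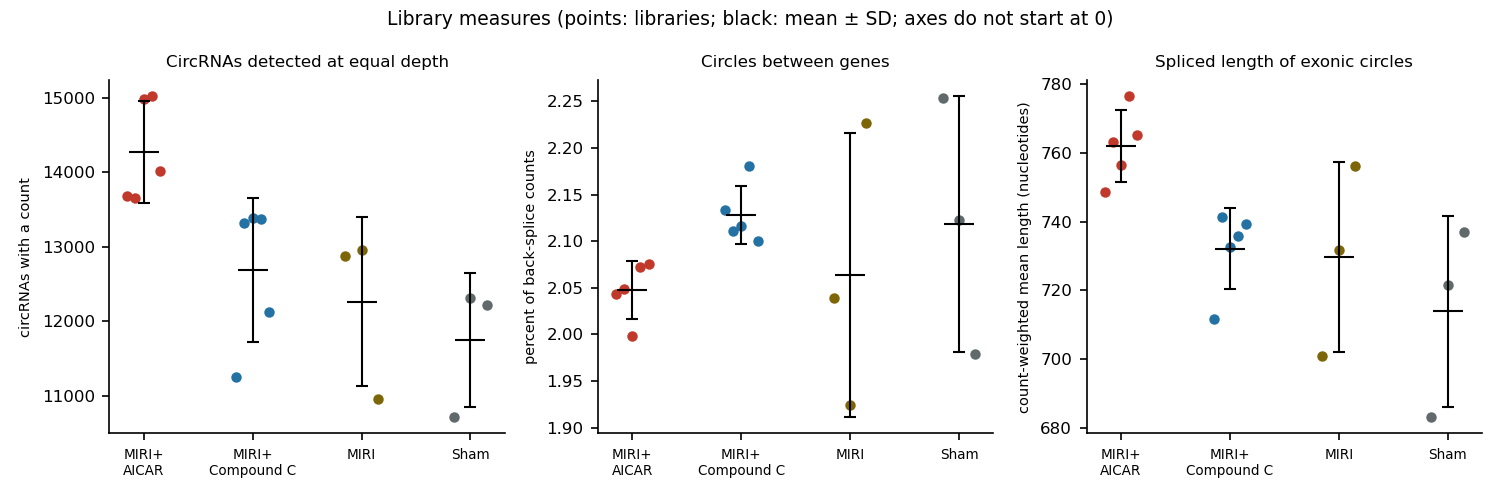
Per-library values with the mean and SD: circRNAs detected after thinning to 119948 counts, the percent of counts in circles listed as intergenic, and the count-weighted mean spliced length of exonic circles. In each panel the 5 MIRI+AICAR libraries do not overlap the 5 MIRI+Compound C libraries.

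Whole libraries differed as well. Thinned to 119948 counts, AICAR libraries held 14269 ± 681 kinds of circRNA, against 12690 ± 963 with Compound C (SD, n = 5 each). The two-sided exact permutation p was 0.00794, the smallest that 5 against 5 allow, and 0.0317 after adjustment over 8 measures. Since thinning leaves counts of 1 in the deeper libraries, circRNAs with at least 2 counts were also compared, at 11162 ± 73.3 with AICAR and 10769 ± 224 with Compound C (exact permutation p = 0.00794). Circles listed as intergenic took 2.05% ± 0.031 of counts with AICAR, against 2.13% ± 0.031 with Compound C (exact permutation p = 0.00794, adjusted p = 0.0317). Intronic circles took 0.209% ± 0.029 with AICAR, against 0.263% ± 0.031 with Compound C, and did not pass (exact permutation p = 0.0317, adjusted p = 0.0794). The exonic share, 95.5% ± 0.136 with AICAR and 95.4% ± 0.090 with Compound C, did not pass either (exact permutation p = 0.0397, adjusted p = 0.0794). Exonic circles were 762 ± 10.4 nucleotides long on average with AICAR, against 732 ± 11.9 with Compound C (exact permutation p = 0.00794), a measure added after the data were seen. Over all types the mean length, 1258 ± 24.2 with AICAR and 1238 ± 25.7 with Compound C, did not pass (exact permutation p = 0.262, adjusted p = 0.299). Total counts were 204060 ± 30107 with AICAR and 169310 ± 22078 with Compound C, a difference that did not pass (exact permutation p = 0.119, adjusted p = 0.190). The share of counts in the 10 most abundant circRNAs was 7.37% ± 0.341 with AICAR and 7.23% ± 0.458 with Compound C (exact permutation p = 0.619, adjusted p = 0.619). The part of depth and circle detection in the calls above was not tested beyond the thinned fit, which called 28 circRNAs and 64 host genes.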

How the data were processed

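Back-splice junction read counts per circRNA were deposited by the authors as 1 table of 16 libraries and were obtained with CIRI, per the file headers. RNA was depleted of rRNA, digested with RNase R and made into stranded dUTP libraries, per the labels' protocols. The submitters' processing notes name mm9, but 88.9% of starts and 88.8% of ends of 50032 exonic circRNAs lie on GRCm38 exon boundaries (GENCODE M21), against 0.35% of starts moved by 1 base, so coordinates are given as GRCm38. The table holds no count of 1. Where a circle's exons were annotated, the junction was read from the transcript.

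Counts were fitted in edgeR 4.0.16 (R 4.3.3), with TMM scaling, a filter (filterByExpr, minimum count 5, minimum total 15), 1 quasi-likelihood fit of the 4 groups and two-sided tests of MIRI+AICAR against MIRI+Compound C, adjusted by Benjamini-Hochberg over all features tested and called under 0.05. An SE is the log2 fold change divided by the square root of F. Host gene sums were fitted likewise, and the mix of circles with diffSpliceDGE. Library measures had exact permutation tests over 252 splits. The fits were tested on simulated counts. Alternatives used DESeq2 1.42.0, limma 3.58.1 (voom), other scalings and filters, thinned libraries and single libraries left out, up to 20 for a feature. An alternative that gave a feature no adjusted p was not counted for it, also where a call is said to stand in all alternatives.

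Named were the 10 higher and 10 lower circRNAs and host genes with the smallest p, up to 3 genes a list, the 10 most abundant circRNAs, 5 genes by circle mix and 5 circles present in 1 arm. Members and gene lists were chosen with earlier results of these data known. A pair of lists, the exonic length and the list counts without single libraries or by other tools were added after seeing the data. Counting intervals and the limit of 3 counts cover counting error only. Plots used matplotlib 3.10.9 in Python 3.11.15.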

Additional observations from a re-analysis of the deposited data

Results flagged for a closer look

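In 17 of 224 groups of 5 library values, the library at one end stood apart from the other 4 by more than Dixon's limit, and chance does this in about 1 in 20 groups. All values are CPM. Of circRNAs, MIRI+Compound C replicate 1 had 2262 of Ttn novel_circ_036213 (the others 581 to 1001), 14.98 of Cpeb3 novel_circ_032911 (the others 61.7 to 78.7) and 3258 of Rbm4 novel_circ_031920 (the others 4076 to 4338).

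Among host gene sums in the MIRI+AICAR arm, replicate 4 had 409 of Flt1 (the others 274 to 293) and 12.9 of Ccnd3 (the others 0). Replicate 2 had 1383 of Efnb2 (the others 1124 to 1183). Replicate 3 had 2315 of Cpeb3 (the others 2788 to 2975) and 1437 of Rmdn2 (the others 963 to 1073). Replicate 5 had 48.3 of Adk (the others 186 to 224), 1647 of Pde5a (the others 474 to 599) and 1196 of Trpc6 (the others 126 to 284).

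In the MIRI+Compound C arm, replicate 1 had 708 of Flt1 (the others 523 to 572) and 890 of Dnm3 (the others 545 to 613). Replicate 2 had 97.7 of Vwf (the others 13.8 to 27.7). Replicate 4 had 197 of Rbfox2 (the others 96.4 to 115). Replicate 5 had 682 of Stat2 (the others 365 to 448) and 124 of Ikzf1 (the others 33.2 to 56.2).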

How the results depend on the processing

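Of the 44 circRNA calls 9 stood in every alternative that gave them an adjusted p, and of the 72 host gene calls 34 did. No called feature turned its direction. The number of called circRNAs was 103 without the filter (69 higher, 34 lower, 37 shared with the 44), 81 with only the 10 libraries of the contrast and 28 in thinned libraries. The number of called host genes was 133 without the filter and 120 with only the 10 libraries. Leaving out 1 library gave 10 to 45 circRNAs and 37 to 68 host genes, lowest without MIRI+AICAR replicate 3, and 46 host genes without MIRI+Compound C replicate 5. A changed circle mix was called in 1 gene by Simes combination, in 1 (Ttn) with a replicate block, and in 0 to 2 with 1 library left out. The cause of these changes was not tested. DESeq2 called 64 circRNAs (2923 had no adjusted p) and 82 host genes (1870 had none), RLE size factors 49 and 74, total-count scaling 47 and 72, a minimum count of 10 55 and 77, and voom 42 and 94.

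Replicate numbers did not pair the libraries: deviations of same-numbered libraries correlated at 0.225, 0.0246, -0.0652, 0.00241 and 0.0293 over 1558 circRNAs, and only number 1 correlated best with itself. With the replicate block 36 circRNAs (12 higher, 24 lower, 33 shared) and 82 host genes (69 shared) were called.

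Without 1 library, the difference in detected circRNAs was 1221 to 1752, in the intergenic share -0.0876 to -0.0676 percentage points, in the intronic share -0.0654 to -0.0466 points, in the exonic share 0.158 to 0.232 points and in the share of the top 10 circRNAs -0.0530 to 0.2498 points, the last turning its sign without MIRI+Compound C replicate 1. With 4 against 5 libraries the adjusted p rose above 0.05 in some cases, up to 0.127 for detection and 0.0635 for the intergenic share. The length over exonic circles alone differed by 29.9 nucleotides. The median mean count of tested circles was 7.5, which limits the precision of single circles.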

Other observations

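Single circles could be abundant in some libraries and listed at 0 in others of the same group. The circles with the largest fitted differences of the contrast in either direction, named after their values were seen, were of this kind and did not pass in edgeR. The Stau2 circle novel_circ_000158 (GRCm38 chr1:16440323-16509408, minus strand), from the gene of an RNA-binding transport protein, had 174 counts (839 CPM) in MIRI+AICAR replicate 4 and 0 in the other AICAR and all Compound C libraries (adjusted p = 0.291). It also had 93 and 115 counts in MIRI replicates 1 and 2, 127 counts in Sham replicate 3 and 0 in the other libraries of MIRI and Sham. A circle listed as intergenic, novel_circ_031996 (chr19:5796087-5796371, minus strand), had 0 counts in all AICAR and MIRI libraries, 51 and 55 counts in MIRI+Compound C replicates 1 and 5, and 72 counts in Sham replicate 1 (adjusted p = 0.143). That type is the authors' and was not checked against gene annotation.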
